A study of Mus musculus with 4 samples.

Results

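The genes described here are 9 Toll-like receptors, Tlr1 to Tlr9, and Cd14, measured in the inflamed mouse colon. They were found by their names on the array. All 10 were present, among 37074 gene names, and were covered by 21 probes that are not controls. Total RNA of whole colon from C57BL/6 mice was hybridised to 4 one-colour arrays. The 2 control mice were Junb fl/fl, with both floxed alleles and no Cre, and the other 2 were Junb fl/fl Cd4-Cre, written Junb Cd4-Cre below. All 4 had drunk DSS (dextran sulphate sodium, a polymer toxic to the gut lining) and were sampled on day 5. Their age and sex are not in the labels. No colon without DSS was among the samples, so no value below is a response to DSS. Cd4-Cre removes floxed DNA in the T cell lineage, while the myeloid and epithelial cells that express most Toll-like receptors keep the floxed gene intact. The study profiled the colon because DSS colitis was worse in the mutants, and the comparison here asks whether the receptors for bacterial and viral products and the genes around them differed between the genotypes.

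Toll-like receptors are membrane proteins that bind conserved microbial molecules through leucine-rich repeats and signal through a cytoplasmic TIR domain. Cd14 has no signalling domain. It binds lipopolysaccharide and hands it to Tlr4 and its partner Ly96 (MD-2). Tlr2 pairs with Tlr1 or Tlr6 to bind bacterial lipopeptides, Tlr5 binds flagellin, and Tlr3, Tlr7, Tlr8 and Tlr9 bind nucleic acids inside endosomes. The adaptors Myd88 and Ticam1 pass the signal to kinases and then to NF-kappaB and interferon regulatory factors, which switch on cytokine and chemokine genes. In the colon, resident macrophages are known for weak responses to these ligands, and Tlr5 is an epithelial and phagocyte receptor for motile bacteria.

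Levels are given as intensity, the spatially detrended brightness of a spot, or as log2 signal, the log2 of that intensity minus the log2 of the array's 75th percentile. Differences are Junb Cd4-Cre minus control on the log2 scale with the limma standard error and n = 2 arrays a group. Across 19325 genes tested, none (0%) passed a Benjamini-Hochberg adjusted p of 0.05, and 9.29% had an unadjusted p under 0.05, 5.31% higher and 3.98% lower in the mutants. The second rule is used below with those shares as its background. The median difference over all genes was 0.02 with this scaling and -0.17 without any scaling. All 13 colon epithelial markers were above background. The log2 signal of Xist was -0.55 (control) and -0.77 (mutant) for replicate 1, against -6.13 and -6.43 for replicate 2, and the Y-linked gene Eif2s3y had the opposite pattern. Uty and Ddx3y, also Y-linked, followed Eif2s3y. The Y-linked gene Kdm5d did not, at -2.52 and -2.33 in controls and -2.44 and -2.25 in the mutants. By Xist and the Y-linked genes other than Kdm5d, each genotype was 1 female (replicate 1) and 1 male (replicate 2). The difference within the female and the male pair is given where a result turns on it. Junb itself, not deleted outside T cells, differed by 0.15 ± 0.11 (adjusted p = 0.691). Exact permutation of 2 against 2 arrays cannot give a two-sided p below 0.333, so the limma fit over all genes carries the tests.

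Of the 9 members tested, 1 (11.1%) was past the unadjusted threshold by the probe standing for its gene, against 9.29% of all genes. A dimmer Tlr5 probe also passed it and is given below. The 1 member was Cd14. Its brighter probe (chr18:36884727-36884786, mm9, minus strand) gave intensities of 1440 and 1498 in controls and 2251 and 1936 in the mutants. After scaling, the log2 signals were 2.13 and 2.19 against 2.86 and 2.85, so the groups lay apart and the 2 mutants were nearly equal. The mean was 2.16 ± 0.04 (SD, n = 2) in controls and 2.85 ± 0.004 in the mutants. Cd14 was thus 1.62-fold higher in the mutants (log2 difference 0.70 ± 0.10, 95% interval 0.43 to 0.96), with an unadjusted p of 0.000964 and a limma adjusted p of 0.417. The difference was 0.73 in the female and 0.66 in the male pair. A second Cd14 probe (chr18:36884969-36885028) gave 1169 and 1212 against 1878 and 1619, a difference of 0.74 ± 0.11 (unadjusted p = 0.000753). Under 11 alternative settings the difference ranged from 0.64 to 0.73 and the unadjusted p from 0.000504 to 0.00988, while the adjusted p was at or above 0.087 in each. With the replicate number as a block 0.238% of all genes and 0 of the members passed the adjusted threshold. Groups that do not overlap were common here, at 43.2% of all genes tested, and were seen in 3 of the 9 members tested, Cd14, Tlr4 and Tlr9. For Tlr4 this is the brightest probe, and on its other probe above background the groups overlapped.

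**Figure D1:**
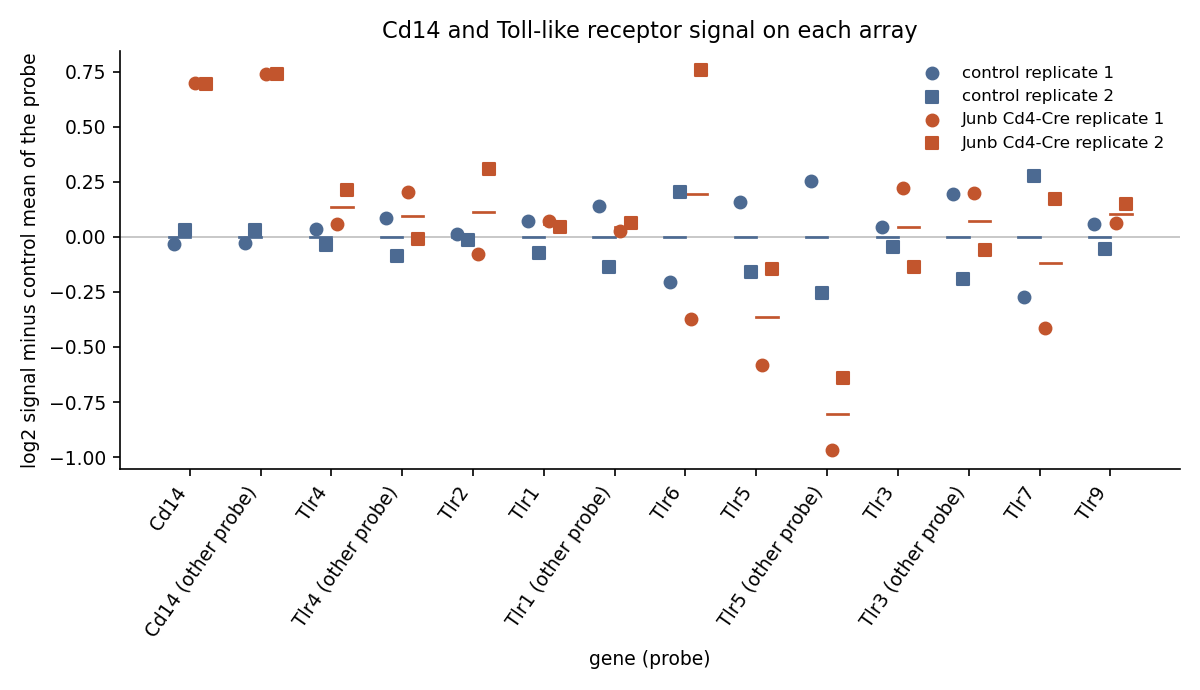
Log2 signal of each probe that passed the filter, minus the mean of the 2 controls for that probe (y axis), by gene and probe (x axis). Points are arrays, circles replicate 1 and squares replicate 2, and short lines are group means. Both Cd14 probes have the mutants together near 0.70 and 0.74, while the arrays of most receptors are mixed.

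Tlr4, the receptor that Cd14 serves, was measured by probes that do not sit together, and their opening 30 bases are shown because they do not report one transcript region.
Tlr4, brightest probe, chr4:66591199-66591258: tcttccatagtttgtgcttcatgtccctgc
Tlr4, RefSeq probe, chr4:66503724-66503782: tgtgatagggctttaaatagttgagctaat
Both are on the plus strand of mm9. The brightest probe lies 87.4 kb beyond the nearest other Tlr4 probe and is tied by the array to an Ensembl transcript and a cDNA clone, with no RefSeq entry. The other 2 probes lie within 3.44 kb of each other and are tied to the RefSeq transcript. The brightest probe had intensities of 241.3 and 228.0 in controls and 230.8 and 221.6 in the mutants, a difference of 0.14 ± 0.14 (95% interval -0.23 to 0.50, adjusted p = 0.785). The RefSeq probe had 197.8 and 174.9 against 202.0 and 150.4, a difference of 0.10 ± 0.16 (-0.31 to 0.50). On both probes the interval includes 0 and its upper end is 1.41-fold and 1.42-fold higher, below the measured fold of Cd14. The interval of Cd14 itself began at 1.35-fold, so the intervals of Cd14 and Tlr4 overlap. The difference between Cd14 and Tlr4 was not itself tested. The remaining Tlr4 probe, at 12.8 to 16.4, was below that detection limit on all 4 arrays. Ly96, the lipopolysaccharide-binding partner of Tlr4, differed by 0.25 ± 0.14 (adjusted p = 0.628), with 0.02 in the female and 0.49 in the male pair.

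None of the 3 lipopeptide receptors passed either threshold. The single Tlr2 probe (chr3:83640344-83640403) had 1233 and 1206 in controls and 1091 and 1229 in the mutants, and the difference after scaling was 0.11 ± 0.16 (-0.29 to 0.52, adjusted p = 0.842). One mutant lay below both controls on the log2 scale and the other above them. Tlr1 (chr5:65315994-65316053) had 1438 and 1293 against 1352 and 1146, a difference of 0.06 ± 0.11 (-0.23 to 0.35), and its other probe gave 0.04 ± 0.14. These intervals reach no further than 1.31-fold higher for either Tlr1 probe and 1.43-fold for Tlr2. Tlr6, a neighbour of Tlr1 on chromosome 5, was dim. Its probe (chr5:65344365-65344424) had 29.5 and 39.0 against 24.7 and 46.8, with the lowest and the highest array both mutants, so its interval is wide (0.19 ± 0.45, -0.96 to 1.34). Without 1 array Tlr6 ranged from -0.37 to 0.76.

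Tlr5, the flagellin receptor, had the lowest difference of the 9 members tested, and its 2 probes differed in size. They lie in the same stretch of chromosome 1 on the plus strand of mm9, and their opening 30 bases are shown because the finding depends on which one is read.
Tlr5, RefSeq probe, chr1:184905770-184905829: acctccaggatgttggctggtttctcgata
Tlr5, GenBank probe, chr1:184906201-184906260: gcagcttcatgctttctgtgctgttcagtt
The RefSeq probe had intensities of 140.5 and 112.2 in controls and 79.2 and 92.5 in the mutants. After scaling its groups just touched, at -1.23 and -1.55 against -1.97 and -1.54, and the difference was -0.36 ± 0.23 (-0.96 to 0.23, adjusted p = 0.655). It came from the female pair, at -0.74, against 0.01 in the male pair. The GenBank probe had 50.6 and 35.4 against 20.4 and 22.1, and the lowest of these, mutant replicate 1, was not well above background. Its difference was -0.81 ± 0.31 (-1.59 to -0.02, unadjusted p = 0.0469, adjusted p = 0.599 over all probes), with -1.22 and -0.39 in the pairs. That limma p, unadjusted, did not stay under 0.05 when control replicate 1 (-0.55, 0.189), mutant replicate 1 (-0.64, 0.196) or mutant replicate 2 (-0.97, 0.0759) was left out, after quantile normalization (-0.73, 0.0582) or after normexp correction (-0.18, 0.196). Both Tlr5 probes were thus lower in the mutants by their means, and neither gave a call that held.

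**Figure D2:**
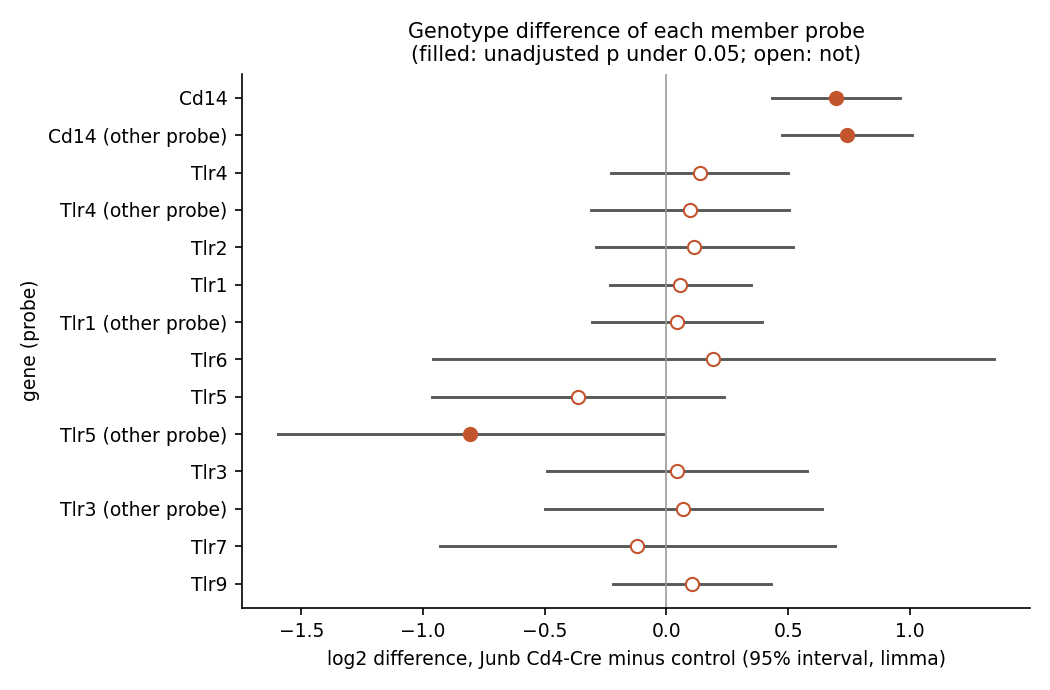
Log2 difference between Junb Cd4-Cre and control (x axis) for each member probe that passed the filter (y axis), with the 95% limma interval as a line. Filled points have an unadjusted p under 0.05: both Cd14 probes at 0.70 and 0.74 and 1 of the Tlr5 probes at -0.81.

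The nucleic acid receptors came next. Tlr3, which binds RNA duplexes, was measured by a probe at chr8:46495198-46495257 with 92.1 and 86.3 in controls and 98.3 and 66.2 in the mutants. The difference was 0.04 ± 0.21 (-0.49 to 0.58), and the other probe gave 0.07 ± 0.22. Tlr9, which binds CpG DNA, had 423.4 and 389.6 against 400.3 and 367.3 (chr9:106128979-106129038), and 0.11 ± 0.13 after scaling (-0.22 to 0.43, adjusted p = 0.817). For Tlr9 the mutants lay above the controls by a margin smaller than the spread within either group.

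Tlr7 and Tlr8 are neighbours on the X chromosome that bind viral and bacterial RNA. Of these only Tlr7 had a probe well above background on all 4 arrays. The only Tlr7 probe that passed the filter is shown for the run of alternating T and C at its 5′ end, in capitals.
Tlr7, brightest probe, chrX:163742863-163742922: TCTCTCTCTCTgatactgaactgtaccaga
A run of T and C in turn of at least 11 bases occurred in 33 of 56594 probes, on this strand of the probe only. Of those 33 probes 97.0% were well above background on all 4 arrays, against 46.6% of all probes. What part the run has in the Tlr7 signal was not tested. This probe had 57.0 and 83.0 in controls and 48.8 and 63.1 in the mutants, a difference of -0.12 ± 0.32 (-0.93 to 0.69), and in both genotypes the male array was the brighter. Of the other 2 Tlr7 probes, one had 18.1 and 19.5 against 18.5 and 25.4 and was well above background on mutant replicate 2 only, and the other was not above background at all. None of the 4 Tlr8 probes was well above background on any array. Their intensities ranged from 2.99 to 21.6, so Tlr8 has no measured difference.

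Of the 8 receptors tested, 6 had a positive and 2 a negative difference, with a median of 0.08 and a range from -0.36 to 0.19, beside a median of 0.02 over all genes. Their limma adjusted p lay between 0.655 and 0.959. The widest intervals, of Tlr6, Tlr7 and Tlr5, each include a fold as large as the 1.62 of Cd14 in at least 1 direction, so these data do not show that the receptors were equal. Tlr12 and Tlr13, mouse receptors outside the group, differed by 0.03 ± 0.19 and 0.07 ± 0.27, and Tlr11 was not well above background. In bulk tissue, fewer cells of a type and less RNA per cell cannot be told apart.

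The genes that Toll-like receptors work through were counted step by step from lists of 85 genes on the array, of which 75 were tested. Among the adaptors, 0 of 4 had an unadjusted p under 0.05 (median 0.20). The other 2 adaptors on the array were not well above background on any array. Myd88, the adaptor shared by most Toll-like receptors, had log2 signals of 2.38 and 2.60 in controls and 2.91 and 2.71 in the mutants. Its difference was 0.32 ± 0.14 (limma unadjusted p = 0.0633). Sarm1, an inhibitory adaptor, differed by -0.61 ± 0.36. It was dim, at -3.61 and -3.63 against -4.51 and -3.95, and only 1 of the mutant arrays was well above background. Among the kinases and ubiquitin ligases it was 0 of 17 (median 0.004), with Irak1 at 0.19 ± 0.13 and Irak2 at 0.16 ± 0.11. Among the co-receptors it was 0 of 6, with the scavenger receptor Cd36 at -0.58 ± 0.35. Of 9 transcription factors 1 was past that threshold, Irf8, a factor of monocyte and dendritic cell development, at 0.62 ± 0.15 (unadjusted p = 0.00783, adjusted p = 0.418). The list of receptor chaperones had 1 of 6, Tram1 at 0.43 ± 0.11 (unadjusted p = 0.0125, or 0.0907 when mutant replicate 1 was left out). Tram1 is a protein of the ER translocon that shares a name with the adaptor Ticam2 (TRAM), and is not known as a Toll-like receptor chaperone. The chaperone Unc93b1, which carries the nucleic acid receptors to endosomes, differed by 0.17.

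Inhibitors and target genes stand at the end of the pathway. Of 14 inhibitors, 11 were higher and 2 had an unadjusted p under 0.05, both higher (14.3%, against 5.31% of all genes). Socs1, a cytokine-induced inhibitor, differed by 1.26 ± 0.21 (unadjusted p = 0.00156), and Nfkbia, the inhibitor of NF-kappaB and one of its target genes, by 0.41 ± 0.13 (0.0212). The Nfkbia value was 0.40 without control replicate 1 (limma unadjusted 0.0717), 0.43 without control replicate 2 (0.0565) and 0.28 without mutant replicate 2 (0.144). Of 17 target genes tested, 16 were higher, and 9 (52.9%) had an unadjusted p under 0.05, all higher, with a median of 1.18 (1.14 in the female and 1.14 in the male pair). Over the settings that leave out 1 array this number was 7 to 13, lowest without control replicate 1 or mutant replicate 2. With the replicate number, here also the sex, as a block it was 13, and that of the inhibitors 4. The count of targets takes in only genes that passed the filter, and 1 of them, Cxcl2, passed through the mutants alone, where it was at least 2.37-fold higher. With a filter on all 4 arrays, which leaves Cxcl2 out, the count was 8 of 16 and the median 1.12. The 6 targets not tested, among them Il12b, Il10 and Ifnb1, were not well above background on any array. Cxcl2, Unc93b1 above, and Cd80, Cd86, Ly6c2, Ly6g and Csf3r below were named after their values were seen.

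Irg1, which makes itaconate in activated macrophages, had log2 signals of -1.16 and -1.14 in controls and 0.81 and 1.097 in the mutants, and was 4.29-fold higher (2.10 ± 0.15, unadjusted p = 3.14e-05, adjusted p = 0.373). The chemokine gene Ccl4 followed, with -1.18 and -1.23 against -0.07 and 0.03 (1.18 ± 0.14, adjusted p = 0.417). Cxcl10, a target of the Ticam1 branch and of interferons, had 2.04 and 1.57 against 3.18 and 2.99 (1.28 ± 0.19), and Il1b had 0.17 and 0.43 against 1.49 and 2.43 (1.66 ± 0.32). In each of these 4 genes the mutants lay above both controls. The 4 were named for the smallest p of their list, so that separation follows from the choice. Groups did not overlap in 43.2% of all genes tested. Among the targets tested the exception in sign, named after its value was seen, was the T cell chemokine gene Ccl5, at -0.51 ± 0.22. The costimulatory genes Cd80 and Cd86 differed by 0.12 ± 0.17 and 0.06 ± 0.19. These targets are also induced by interleukin 1, tumour necrosis factor and interferon, so their levels are no reading of Toll-like receptor signalling alone.

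**Figure D3:**
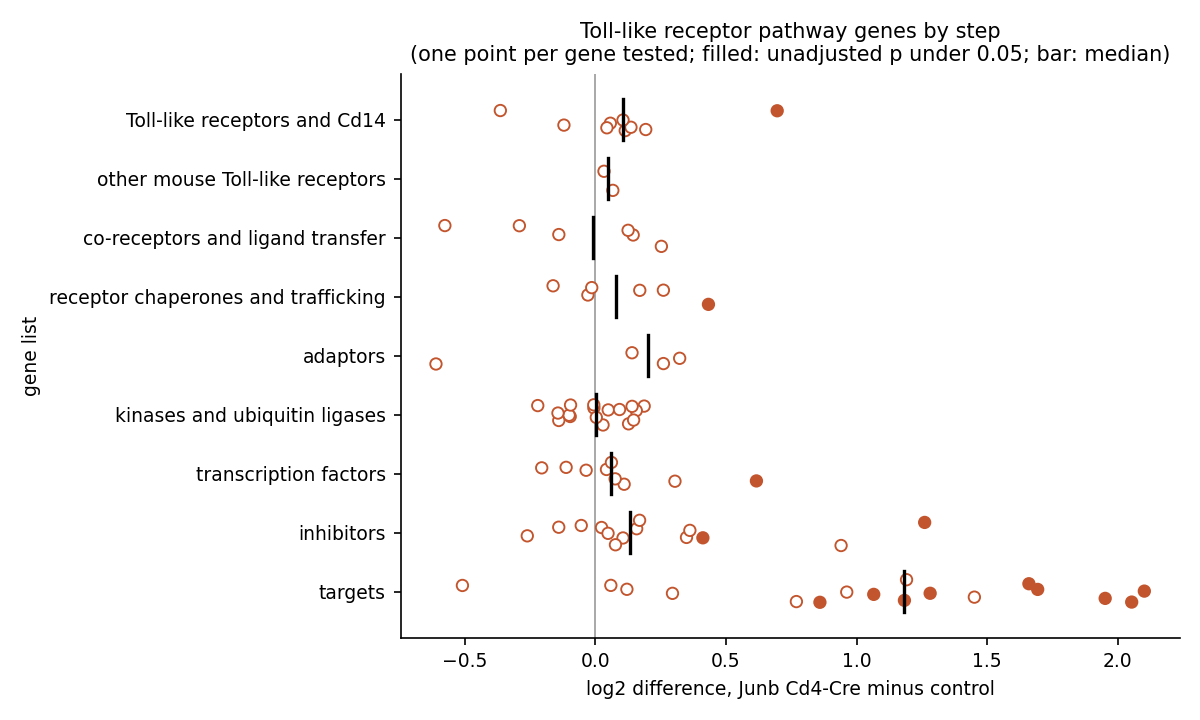
Log2 difference between Junb Cd4-Cre and control (x axis) for each gene tested, by step of the pathway (y axis). Filled points have an unadjusted p under 0.05 and bars are list medians. The median is 0.11 for the receptors with Cd14, 0.004 for kinases and 1.18 for the targets, and the point of Cxcl2 is its fitted value, not its bound.

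Markers of the cells that carry Cd14 and these receptors were measured on the same arrays. Of 14 macrophage and monocyte markers, 0 had an unadjusted p under 0.05 and 5 were higher (median -0.08). Their summed level, in multiples of each array's 75th percentile, was 329.5 to 361.7 in controls and 343.5 to 426.1 in the mutants, which overlap. Most of that sum came from Ly6c1 and Ly6c2, paralogs with near-equal values on every array, and without them the other 12 markers summed to 73.5 to 98.0 and 73.2 to 93.3. Itgam differed by 0.16 ± 0.14 and Cx3cr1, a gene of resident macrophages, by -0.35 ± 0.17. Of 8 neutrophil markers tested, 4 had a positive and 4 a negative difference, and 3 were higher at that threshold, Ltf (1.48 ± 0.26), S100a8 (2.24 ± 0.78) and S100a9 (2.24 ± 0.88), with no call in the other direction. Leaving out control replicate 1 lowered the S100a8 value to 1.49 and the S100a9 value to 1.22. Leaving out mutant replicate 2 lowered them to 1.25 and 1.29. Each of these fits left 1 group with a single sex. The female pair had 2.01 for S100a8 and 2.31 for S100a9, and the male pair 2.48 and 2.18. With the replicate number as a block, 4 of 8 neutrophil markers were higher at an unadjusted p under 0.05. The S100a8 call was lost without the intensity trend. That of S100a9 was lost without the trend, after quantile normalization, without the filter and with the mean over probes. The list median went from 0.73 to 0.20 without control replicate 1 and to 0.39 without mutant replicate 2. Ly6g, which defines mouse neutrophils, differed by -0.14 ± 0.30 and the receptor gene Csf3r by -0.015 ± 0.13. The neutrophil sum was 52.4 to 57.2 in controls and 61.3 to 82.0 in the mutants, and without Csf3r, which carried most of it, 12.0 to 15.2 and 20.5 to 41.7, in both cases without overlap, and the granule genes Mpo and Ngp were not well above background on any array. Dendritic cell markers had 0 of 6 past the threshold, with Itgax at -0.36 ± 0.19. The part of neutrophils in the Cd14 difference was not tested.

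T cell markers had 6 of 10 lower at an unadjusted p under 0.05 (Cd6 at -0.85 ± 0.14, Cd8b1 at -0.96 ± 0.21, and Cd8a at least 2.71-fold lower), with sums of 6.63 to 7.50 against 5.08 to 5.17. Cd8a passed the filter through the controls alone. With a filter on all 4 arrays the count was 5 of 9 and the median -0.48 in place of -0.62. All 10 T cell markers had a negative difference, but that of Cd4, named after its value was seen, was only -0.03 ± 0.14. Smooth muscle markers had 8 of 8 lower (Smtn at -0.59 ± 0.10, Des at -0.66 ± 0.12), with sums of 388.3 to 424.8 against 286.7 to 297.6. Beside Tlr5, colon epithelial markers had 1 of 13 higher and 1 lower (Cdx2 at 0.43 ± 0.13 and the water channel gene Aqp8 at -0.68 ± 0.26, Cdx2 not past 0.05 without control replicate 1 or mutant replicate 2, Aqp8 not without either control or mutant replicate 1, nor without the filter or the trend or with the mean over probes), and their sums overlapped at 1591 to 1601 against 1523 to 1684. B cell markers, which include cells that carry Tlr9, had 1 of 7 lower, Ms4a1 at -0.44 ± 0.17, which was above 0.05 when either control or mutant replicate 2 was left out and without the trend. The B cell sums were 9.28 to 10.5 in controls against 7.76 to 8.87 in the mutants, without overlap. Endothelial markers had 0 of 7 past the threshold, but all 7 were lower (median -0.37). Their sums overlapped, at 5.04 to 7.54 in controls and 3.98 to 5.99 in the mutants. Paneth cell markers had 0 of 5 past it, with 3 higher and 2 lower (median 0.70). Fibroblast markers had 1 of 7, Lum at -0.55 ± 0.16, a call not held without control replicate 2 (-0.37) or mutant replicate 1 (-0.47). With the replicate number, here also the sex, as a block, 2 of 7 endothelial markers were lower at an unadjusted p under 0.05, and of 5 Paneth cell markers 3 were higher and 1 lower. The part of these cells in any receptor value was not tested.

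**Figure D4:**
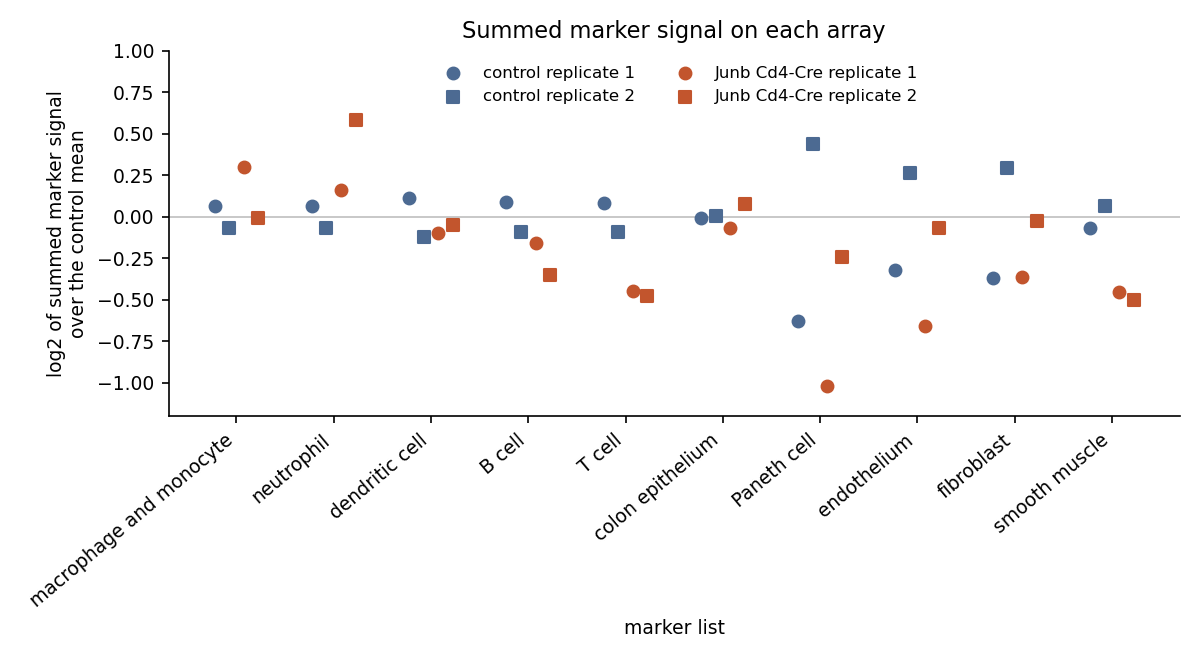
Summed signal of each marker list on each array, as log2 over the mean of the 2 controls (y axis), by list (x axis), with circles for replicate 1 and squares for replicate 2. The mutants lie below both controls for B cell, T cell and smooth muscle markers and above them for neutrophil markers, and are mixed with them for macrophages and epithelium.

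By Euclidean distance between log2 signals on the 4 arrays, each centred on its gene's mean, the 3 genes nearest to Cd14 of 19325 were 2 array features named only by position, at 0.036 and 0.067, and 1 RIKEN clone, at 0.079. With 4 arrays such likeness is a description of these libraries.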

How the data were processed

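Spot intensity was read from the scanner files of 4 one-colour (Cy3) Agilent arrays, which name Feature Extraction 11.5.1.1, as do the submitters' processing notes. The deposited processed signal is an intensity after spatial and multiplicative detrending, per the file headers, and the deposited mean signal and median background are raw intensities. No scaling between arrays is recorded per the file headers, which place all arrays on 1 slide in 1 scan. The other deposited values used are yes or no flags for background, saturation and outliers. The 75th percentile per array was 268.5 to 330.0, and saturation was flagged at 0 spots.

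Here log2 of the processed signal minus each array's log2 75th percentile was averaged over spots of a probe without outlier spots. Probes well above background on at least 2 arrays were kept, and the brightest stood for its gene. Fits used limma 3.58.1 in R 4.3.3 (lmFit, eBayes with trend, no block, two-sided, prior degrees of freedom 3.12) over 19325 genes, and second probes came from the same fit over 28897 probes, added after the data were seen. The fit was tested on simulated data. A fold against a group not above background on any array is a bound, taken per array from the higher of the lowest signal well above background and the probe's own.

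The main fit did not take the replicate numbers in the titles as pairing. They were used for the differences within the female and the male pair and for the replicate block. The members, gene lists and tests were chosen with earlier results of these data known. All members, Junb, up to 4 genes per pathway list and 3 per marker list by smallest p were named. Genes named outside this rule are marked as such. Separate cultures or litters are not stated, so p-values measure the spread between these mice. Probe positions are those of the files on mm9, and exon or UTR annotation of that build was not used here. RefSeq symbols were used for neighbours only. Alternatives were quantile normalization, normexp correction with an offset of 50, no filter or a filter on all 4 arrays for dim probes, the mean over probes, no trend, the replicate block and leaving out each array.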

Additional observations from a re-analysis of the deposited data

Results flagged for a closer look

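Each pair was a single mouse against a single mouse, so the difference between the female and the male pair was not tested. In 13 genes named here, besides Cd4 (-0.16 in the female and 0.095 in the male pair), the difference had opposite signs in the pairs. Among the members these were Tlr5 (-0.74 in the female and 0.013 in the male pair), Tlr2 (-0.091 and 0.32), Tlr1 (-0.0029 and 0.12), Tlr6 (-0.17 and 0.55) and Tlr3 (0.18 and -0.09). Tlr12 had 0.30 and -0.24, the macrophage marker Itgam -0.065 and 0.38, the B cell factor gene Pax5 -0.25 and 2.67, and the collagen gene Col1a2 0.033 and -0.59. The costimulatory genes Cd80 (-0.063 and 0.30) and Cd86 (-0.12 and 0.24) and the neutrophil genes Ly6g (0.076 and -0.35) and Csf3r (-0.15 and 0.12) were the others. Control replicate 1 and control replicate 2 of Pax5 lay at -3.30 and -4.10, and only 1 of these was well above background.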

How the results depend on the processing

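The Cd14 difference and the number of members past the unadjusted threshold, 1, kept their direction and side under all 11 alternatives, as did Tlr4, Tlr5 and Tlr9. The number of genes past the adjusted threshold was 46 with the replicate block and 0 otherwise. With the replicate block the unadjusted number was 3382, the pathway number 22, and the Cd14 adjusted p 0.087. The block changed no member's call. The correlation of deviations between arrays of the same number was 0.24. The unadjusted number was 3607 without the filter on dim probes and 864 to 2167 without 1 array, lowest without mutant replicate 1. The pathway number was 12 to 17 without 1 array. The target median was 1.06 after quantile normalization, 0.88 after normexp correction, 1.08 with the mean over probes and 0.96 to 1.24 without 1 array. Without the filter on dim probes it was 0.86 over all 23 targets, and 1.18 over the 17 of the main fit. Of those 23 targets, 10 were higher and 2 lower at an unadjusted p under 0.05. The main fit had no target lower at that threshold, but quantile normalization and normexp correction each gave 1. Without 1 array, Tlr1 ranged from -0.016 to 0.13, Tlr2 from -0.078 to 0.31 and Tlr3 from -0.14 to 0.22. In the same fits Tlr6 ranged from -0.37 to 0.76 and Tlr7 from -0.41 to 0.17. Each changed sign, and the cause was not tested. Leaving out 1 array left 1 group with a single sex. Within the pairs Tlr7 kept its sign, at -0.14 (female) and -0.10 (male), while Tlr1, Tlr2, Tlr3 and Tlr6 did not. The second probe of Tlr1 gave -0.0074 after quantile normalization and -0.094 to 0.18 without 1 array, that of Tlr3 -0.12 to 0.26 and that of Tlr4 -0.011 to 0.20. All arrays shared 1 slide, so the slide was not run as a block. Signal close to background limits Tlr6, Tlr7, Tlr8 and the dimmer Tlr5 probe, and the number of arrays limits every value.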
